A study of Mus musculus with 15 samples.

Results

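The comparison described here asks whether the change in transcript levels that CD8+ T cells undergo between rest and 3 days of activation differs between wild-type (WT) and Susd2-/- mice. For each gene it is the interaction of genotype and day, that is the log2 ratio of day 3 to day 0 in Susd2-/- cells minus the same log2 ratio in WT cells. An interaction above 0 means that the day 3 to day 0 ratio was higher in Susd2-/- cells, and one below 0 that it was lower. All 15 deposited count columns of the series were used, which are sequencing lanes that were summed to 8 libraries in 4 groups of 2.

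Every mouse was a C57BL/6 animal of 8 to 10 weeks that carried OT-I, a transgenic T cell receptor specific for the ovalbumin peptide OVA257-264. The 4 groups were untreated CD8+ T cells of WT mice (WT day 0) and of Susd2-/- mice (Susd2-/- day 0), and CD8+ T cells recovered from splenocytes of WT mice (WT day 3) and of Susd2-/- mice (Susd2-/- day 3) that had been exposed to the peptide for 3 days. Cells were taken out of whole splenocytes with a magnetic bead kit at either time, so at day 3 they had been cultured together with other spleen cells. OT-I CD8+ cells largely share this receptor, so the response is to 1 peptide, and the labels do not state in which cells Susd2 was deleted. Whether 2 libraries of a group are 2 mice is not stated in the labels. A p-value here sets a difference against the spread of such libraries, and part or all of that spread may be technical. The fit took a common spread for each gene over the 4 groups. P-values and standard errors therefore do not reflect a spread that differs between the days. In bulk samples such as these, fewer cells of a type and less RNA per cell cannot be told apart.

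A resting CD8+ T cell is small, does not divide and keeps most of its metabolism low. Recognition of peptide by the T cell receptor sets off calcium, MAP kinase and NF-kB signals within minutes. Immediate early genes such as those for Jun, Fos, Egr and Nr4a proteins are transcribed first and are shut off again quickly, in part by phosphatases and RNA-decay proteins that the same signals induce. Over the following days the cells grow, replicate their DNA, divide and acquire cytotoxic function. The Susd2 product is a single-pass membrane protein named for its sushi domain.

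Library totals ran from 26829807 to 53846911 counts, and 7 libraries had 2 lanes while WT day 3 library 2 had 1. Libraries of a group were more alike at day 0 than at day 3. What edgeR names the biological coefficient of variation was 5.43% against 10.2%. A chi-square per degree of freedom, higher where counts differ more, was 3.01 to 3.17 between lanes of 1 library. Between libraries it was hardly higher in WT at day 0, at 3.37, but 6.30 in Susd2-/-. At day 3 it reached 12.5 in WT and 16.0 in Susd2-/-. How much of the spread in each group was technical was not tested. Markers of the labelled cell type were present, with Cd8a at 1196 to 1256 CPM (counts scaled to a common library total) at day 0 and 719 to 768 CPM at day 3, whereas Cd4 was below 0.411 CPM in every library. The 22 macrophage markers summed to 286 to 294 CPM in WT and 316 to 336 CPM in Susd2-/- at day 0, and to 45.5 to 51.0 and 43.1 to 43.5 CPM at day 3. Within that list Csf1r stood at 9.59 and 9.73 CPM in WT against 23.3 and 22.7 CPM in Susd2-/- at day 0, Vcam1 at 10.7 and 12.2 against 32.8 and 32.1 CPM, and at day 3 Vcam1 and C1qa were at 0 in all 4 libraries. Ctss, a lysosomal protease gene of the list, made up much of these sums and ran the other way, at 164 and 173 against 104 and 99.4 CPM at day 0. Without it the list summed to 122 and 120 CPM in WT against 231 and 216 CPM in Susd2-/- at day 0 and to 11.9 to 16.6 CPM at day 3. Of the 22 markers 1 was called above 0 and 2 below 0, with 17 estimates below 0, a median interaction of -1.24 and a median genotype difference of 1.04 at day 0. In 16 of the 22 a group had no more than 3 counts, where fitted values depend on the prior count, and the other 6 had a median interaction of -0.11. The part of macrophage RNA in the results below was not tested.

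Susd2 itself, the gene deleted in the knockout (chr10:75636706-75644008 on the minus strand, GRCm38), had 90 and 80 counts in the WT day 0 libraries and 1 and 3 in the Susd2-/- day 0 libraries. At day 3 it had 16 and 10 counts in WT and 0 and 2 in Susd2-/-. The libraries therefore separated by genotype on both days. The interaction of Susd2 was 1.35 ± 1.68 (log2 ± standard error) with an adjusted p of 0.667 in edgeR's quasi-likelihood test, so with counts this low no difference in its day change was detectable.

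Promoter sequences are shown first for a few of the called genes, which were picked together with the motifs marked in them. Whether a motif bears on the direction of a call was not tested. The stretches are the 150 bases before a transcription start in RefSeq's promoter table (GRCm38.p6), written 5′ to 3′ on the gene's strand, and none overlaps an exon of GENCODE M21. Maff has 3 listed starts and Per1 has 2, and the start with the most matches to the marked motif was printed. For Nr4a1 (chr15:101266696-101266845, plus strand), Maff (chr15:79347370-79347519, plus) and Per1 (chr11:69100002-69100151, plus), 3 signal-induced genes with interactions below 0, capitals mark TGACG on either strand, the 5-base core of the cyclic AMP response element.
Nr4a1: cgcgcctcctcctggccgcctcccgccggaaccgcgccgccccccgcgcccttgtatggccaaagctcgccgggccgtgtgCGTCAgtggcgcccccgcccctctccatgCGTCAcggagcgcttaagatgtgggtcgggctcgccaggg
Maff: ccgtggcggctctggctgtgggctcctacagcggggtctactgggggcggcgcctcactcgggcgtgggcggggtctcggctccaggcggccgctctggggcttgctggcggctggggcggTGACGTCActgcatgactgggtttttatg
Per1: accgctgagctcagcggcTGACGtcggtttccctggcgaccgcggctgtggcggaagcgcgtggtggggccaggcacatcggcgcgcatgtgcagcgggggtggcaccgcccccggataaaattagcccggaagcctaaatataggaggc

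For Igtp (chr11:58199406-58199555, plus), Irgm2 (chr11:58214827-58214976, plus) and Tgtp2 (chr11:49064213-49064362, minus), 3 interferon-inducible GTPase genes with interactions above 0, capitals mark the gamma-activated site TTCNNNGAA, found in promoters that respond to interferon-gamma, and the core of the interferon-stimulated response element, GAAANNGAAA. Both motifs lie side by side in each of the 3 promoters, and the stretches of Igtp and Irgm2 are copies of each other over much of their length.
Igtp: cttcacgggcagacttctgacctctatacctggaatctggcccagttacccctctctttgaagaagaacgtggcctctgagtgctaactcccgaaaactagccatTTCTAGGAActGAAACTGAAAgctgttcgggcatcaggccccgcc
Irgm2: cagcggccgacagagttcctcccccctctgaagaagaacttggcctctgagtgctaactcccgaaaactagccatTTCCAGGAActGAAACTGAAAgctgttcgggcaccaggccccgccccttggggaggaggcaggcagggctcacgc
Tgtp2: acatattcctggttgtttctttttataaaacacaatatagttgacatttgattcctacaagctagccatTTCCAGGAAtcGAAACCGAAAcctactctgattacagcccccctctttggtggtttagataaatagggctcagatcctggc

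For Mki67 (chr7:135716380-135716529, minus), the gene of the proliferation marker Ki-67 with an interaction below 0, capitals mark CCAAT and TTTGAA, the CCAAT box and the core of the cell cycle genes homology region of G2 and mitosis promoters.
Mki67: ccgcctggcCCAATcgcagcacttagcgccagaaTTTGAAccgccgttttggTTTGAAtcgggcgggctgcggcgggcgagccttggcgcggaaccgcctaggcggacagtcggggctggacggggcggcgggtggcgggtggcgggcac

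The motifs were counted over the 250 bases before every listed start, on both strands, and a gene counted once if any of its starts had a match. TGACG occurred in 15 of the 24 immediate early genes in the table (62.5%), in 26 of 60 cytosolic ribosomal protein genes (43.3%), in 30.2% of the 10581 tested genes in the table and in 19.8% of all 27025 genes. The full element TGACGTCA, which contains TGACG, was found in 3 of the 24 immediate early genes (12.5%), in 6 of 60 cytosolic ribosomal protein genes (10.0%), in 3.00% of the tested genes and in 1.77% of all genes. The CArG box that serum response factor binds was found in 1 of the 24 immediate early genes (4.17%), in 1.39% of the tested genes and in 1.62% of all genes. CCAAT was found in 29 of 38 G2 and mitosis genes (76.3%) against 40.5% of the tested genes, and TTTGAA in 31.6% against 13.2%. TTTGAA was also present in 5 of 10 interferon-inducible GTPase genes, a higher share, so its excess was not particular to G2 and mitosis genes. Of the 10 interferon-inducible GTPase genes with a promoter entry, 9 held GAAANNGAAA (90.0%, against 3.45% of the tested genes) and 6 held TTCNNNGAA (60.0%, against 7.34%). Some of these genes are neighbouring paralogues, such as Igtp and Irgm2, so the promoters are not all independent. The motifs of the GTPase genes were chosen after the values of these genes had been seen. A match describes the sequence and does not show that a factor binds there.

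Of 16057 genes tested, 2164 were called, meaning an adjusted p below 0.05 in edgeR's quasi-likelihood test with Benjamini-Hochberg adjustment over all genes tested. That is 13.5% of the genes, with 1059 above 0 (6.60%) and 1105 below 0 (6.88%). The day changes of the 2 genotypes nevertheless ran closely in parallel, with Pearson's r of 0.902 and Spearman's rho of 0.926 across the 16057 genes, which are not independent replicates. The median interaction of all genes tested was -0.0073 and the quartiles were -0.34 and 0.34. Among the called genes the median size was 0.56 on the log2 scale, and 358 reached 1 log2 unit, 136 above 0 and 222 below 0. Genes with an unadjusted p below 0.05 numbered 4308.

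The count of called genes depended on the day 0 libraries. It was 1058 without WT day 0 library 3, 1112 without WT day 0 library 4, 1420 without Susd2-/- day 0 library 3 and 1184 without Susd2-/- day 0 library 4, and 419 when the day 0 libraries of each genotype were summed and counted as 1 sample, of which 414 were among the 2164. The split between the directions, 48.9% above 0, shifted to 61.2% with no filter on low counts and to 59.3% when ribosomal protein and mitochondrially encoded genes were left out before scaling. With day 0 libraries summed, several lists described below had fewer calls in each direction. They include the naive, memory, chemokine receptor and adhesion, MHC class I and CD8 identity lists. No called gene turned sign in any of the 19 alternatives. Of the genes named below, Zfp36, Tcf7, Tob1, Btg1, Npm1, Noc2l, Oasl1, Cd3g, Cd3d and Trbc2 were not called with the day 0 libraries summed and were called in every other alternative.

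**Figure D1:**
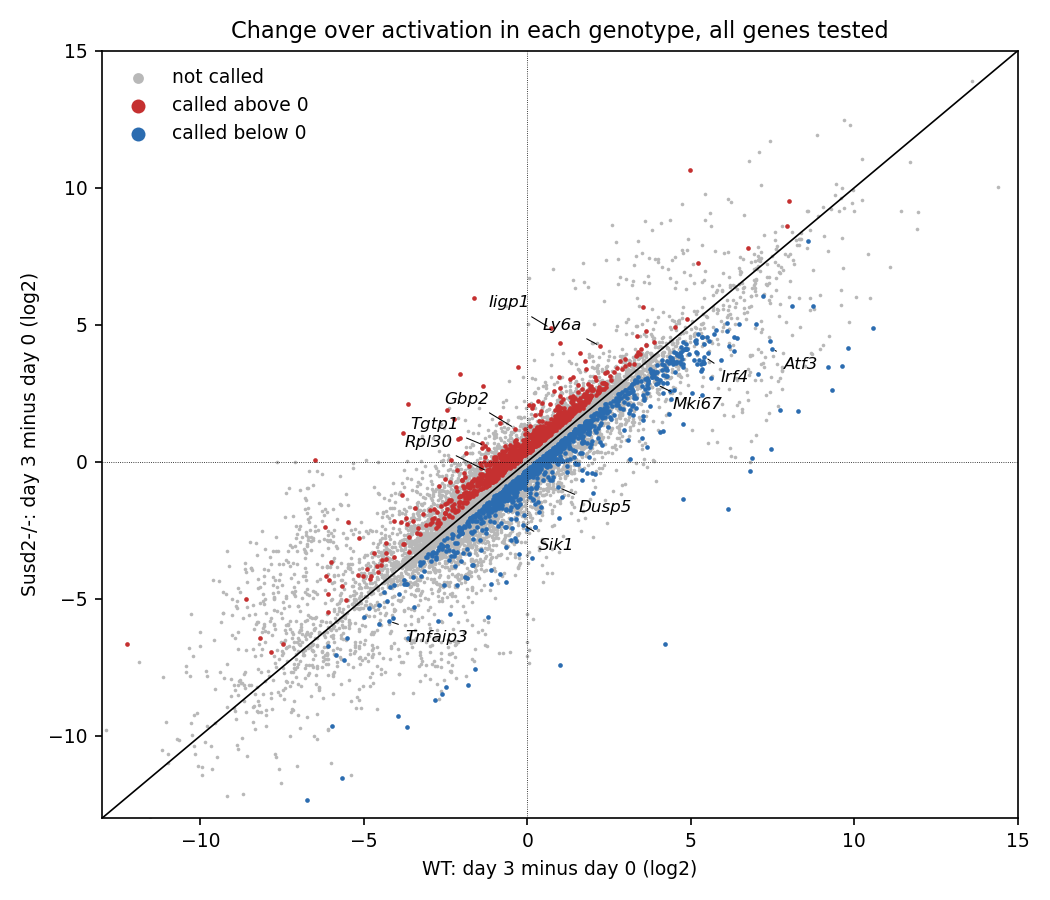
Day 3 minus day 0 on the log2 scale for the 16057 tested genes, WT on the x axis and Susd2-/- on the y axis, with genes called above 0 in red, below 0 in blue and the rest in grey. Points follow the diagonal of equal change (r = 0.902), and the called genes lie as bands on both sides of it. Far-off points mostly have a group near 0 counts, for which the fitted change is no bound.

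In most called genes the fitted day change had the same sign in both genotypes. Among those above 0, the fitted day change was positive in both genotypes and larger in Susd2-/- for 505 genes (47.7%), negative in both and smaller in Susd2-/- for 352 (33.2%), and negative in WT but positive in Susd2-/- for 202 (19.1%). Among those below 0, it was positive in both and smaller in Susd2-/- for 512 (46.3%), negative in both and larger in size in Susd2-/- for 435 (39.4%), and positive in WT but negative in Susd2-/- for 158 (14.3%). In 15 of the 202 and 13 of the 158 genes with opposite signs both changes reached 0.5 log2 units.

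The same interaction can be read as the genotype difference at day 3 minus that at day 0, and for 2007 of the 2164 called genes the day 0 difference was the larger. The median size of the genotype difference among called genes was 0.47 log2 units at day 0 and 0.089 at day 3, against 0.28 and 0.12 among all genes tested. The larger day 0 difference was thus also seen over all genes. Called genes were picked by the difference of these same values, so the 2007 cannot be read as a trait of called genes alone. Day 0 libraries were the more alike, and no test set the days against each other beyond the interaction itself.

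Genes that respond to receptor signals within minutes were mostly called below 0. Of the 30 immediate early genes, all of them tested, 23 were called below 0 and none above, against 6.88% and 6.60% of all genes. Their median interaction was -1.05, made up of a median day change of 0.18 in WT and -1.03 in Susd2-/-. The median genotype difference was 0.84 at day 0 and -0.14 at day 3. The 7 members not called included Junb, Jund and Egr2 with interactions of -1.07, -1.05 and -0.70, and Egr3 with 0.000074, and these were named after their values were seen.

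Atf3, a stress-induced partner of Jun, had the most negative interaction of that list. Its level was 0.687 and 0.683 CPM in the WT day 0 libraries and 6.49 and 6.08 CPM in the Susd2-/- ones, and 121 and 123 CPM against 105 and 115 CPM at day 3. Resting Susd2-/- cells thus stood clear of resting WT cells, while after activation both genotypes were above 100 CPM. The interaction was -3.34 ± 0.18 (adjusted p = 2.55e-09), from a day change of 7.47 ± 0.13 in WT and 4.13 ± 0.09 in Susd2-/-.

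Nr4a1, an orphan nuclear receptor whose level follows T cell receptor signal strength, was at 80.5 and 82.1 CPM in WT and 221 and 213 CPM in Susd2-/- at day 0. At day 3 it was at 95.0 and 89.2 CPM in WT and 80.9 and 89.2 CPM in Susd2-/-. The day 0 groups were far apart and the day 3 groups touched. Its interaction was -1.53 ± 0.10 (adjusted p = 1.07e-08), with a day change of 0.18 ± 0.07 in WT and -1.35 ± 0.07 in Susd2-/-.

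Jun, a subunit of the AP-1 factor, was at 168 and 172 CPM in WT and 458 and 433 CPM in Susd2-/- at day 0, and at 39.5 and 44.3 against 38.6 and 33.2 CPM at day 3. Both genotypes were lower at day 3, by 2.02 log2 units in WT and 3.64 in Susd2-/-, which gave an interaction of -1.62 ± 0.11 (adjusted p = 1.85e-08). Klf6, a zinc-finger factor of the same list, was at 427 and 430 CPM in WT, 1041 and 996 CPM in Susd2-/- at day 0, and 229, 226, 197 and 203 CPM at day 3, for an interaction of -1.44 ± 0.08 (adjusted p = 3.61e-09). Fosb, another AP-1 subunit, and Klf4, a factor linked to quiescence, had interactions of -2.82 ± 0.31 and -2.64 ± 0.27, and Maff, a small Maf protein whose promoter is printed above, one of -2.65 ± 0.20. The Maff level was 9.16 and 8.85 CPM in WT and 39.1 and 39.4 CPM in Susd2-/- at day 0 and 6.89 to 11.7 CPM in all libraries at day 3.

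Sik1 (chr17:31844250-31855804, minus strand), a salt-inducible kinase that cyclic AMP signals induce, had the smallest adjusted p of all genes. It stood at 77.2 and 76.6 CPM in WT and 304 and 310 CPM in Susd2-/- at day 0, and at 70.1 and 68.8 against 63.8 and 61.3 CPM at day 3. WT libraries were at nearly the same CPM on both days, and the Susd2-/- libraries stood just under it at day 3. The interaction was -2.15 ± 0.09 (adjusted p = 4.76e-11), with a day change of -0.15 ± 0.06 in WT and -2.30 ± 0.06 in Susd2-/-. Per1, a circadian clock repressor whose promoter is printed above, was at 57.0 and 62.6 against 183 and 191 CPM at day 0. At day 3 Per1 was at 49.9, 43.6, 44.5 and 43.3 CPM, with an interaction of -1.73 ± 0.11 (adjusted p = 1.07e-08). Of the 17 tested clock genes 3 were called below 0, with Bhlhe40 (-0.66 ± 0.11) and Ciart (-1.51 ± 0.34) beside Per1, and the median of the list was -0.12. Ciart was not called in 4 alternatives, among them the fits without WT day 0 library 4 and without Susd2-/- day 0 library 4.

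**Figure D2:**
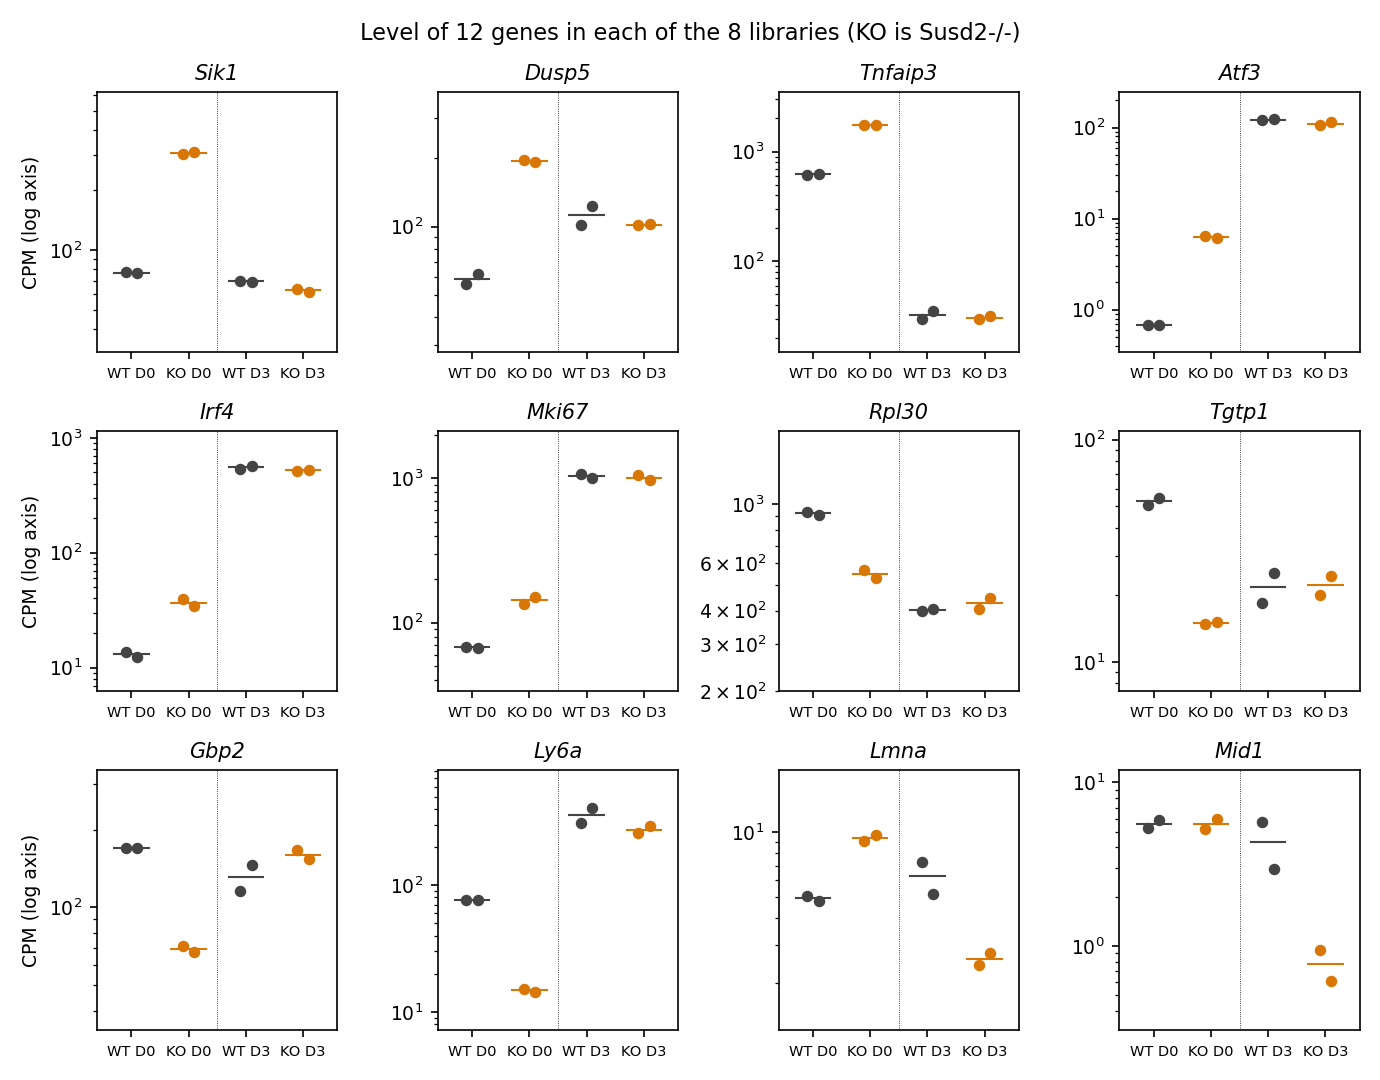
CPM on a log axis in each of the 8 libraries for 12 genes, with WT in grey, Susd2-/- (KO) in orange, points for libraries and a line at the mean of each group. In the first 6 genes and in Rpl30, Tgtp1, Gbp2 and Ly6a the genotypes stand apart at day 0 and near each other at day 3. Lmna and Mid1 differ at day 3.

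Feedback inhibitors of the same signals were mostly below 0 too. Of 13 MAP kinase phosphatases and Sprouty-family inhibitors, 10 were called below 0 and 1 above 0, with a median of -0.80. Dusp5 (chr19:53529109-53542431, plus strand), a nuclear phosphatase of ERK, was at 55.9 and 61.7 CPM in WT and 196 and 193 CPM in Susd2-/- at day 0, and at 102 and 123 CPM in WT and 102 and 102 CPM in Susd2-/- at day 3. The levels converged from opposite sides, with a day change of 0.93 ± 0.08 in WT and -0.93 ± 0.08 in Susd2-/-, and the interaction was -1.86 ± 0.11 (adjusted p = 1.07e-08). Dusp1 and Dusp4, which act on p38, JNK and ERK, had interactions of -1.57 ± 0.12 and -2.29 ± 0.21. The 1 member above 0 was Spry2, an inhibitor of receptor signalling to ERK, named after its value was seen. Its interaction was 1.23 ± 0.23 and its level 24.1 and 27.8 CPM in Susd2-/- day 3 libraries against 10.1 to 15.4 CPM in the other 6.

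Of 17 genes for NF-kB subunits, NF-kB feedback inhibitors and RNA-decay proteins, 11 were called below 0 and none above, with a median of -0.46. Tnfaip3, which encodes the NF-kB inhibitor A20, was at 618 and 622 CPM in WT and 1735 and 1741 CPM in Susd2-/- at day 0, and at 29.8 and 35.5 against 30.0 and 31.6 CPM at day 3. The day 3 groups overlapped, while at day 0 the Susd2-/- level was nearly 3 times that of WT. The interaction was -1.57 ± 0.10 (adjusted p = 1.31e-08). Zfp36l2 and Zfp36, which bind AU-rich elements and destabilise cytokine transcripts, had interactions of -1.21 ± 0.10 and -0.68 ± 0.10, and Rel, an NF-kB subunit of lymphocytes, one of -0.67 ± 0.11. The fitted day change was positive for Rel, 1.01 ± 0.08 in WT and 0.34 ± 0.07 in Susd2-/-, and negative for Zfp36l2, -2.39 ± 0.07 and -3.60 ± 0.07.

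With day 0 libraries summed per genotype, 19 of the immediate early genes, 4 of the phosphatase group and 4 of the NF-kB group were called below 0.

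**Figure D3:**
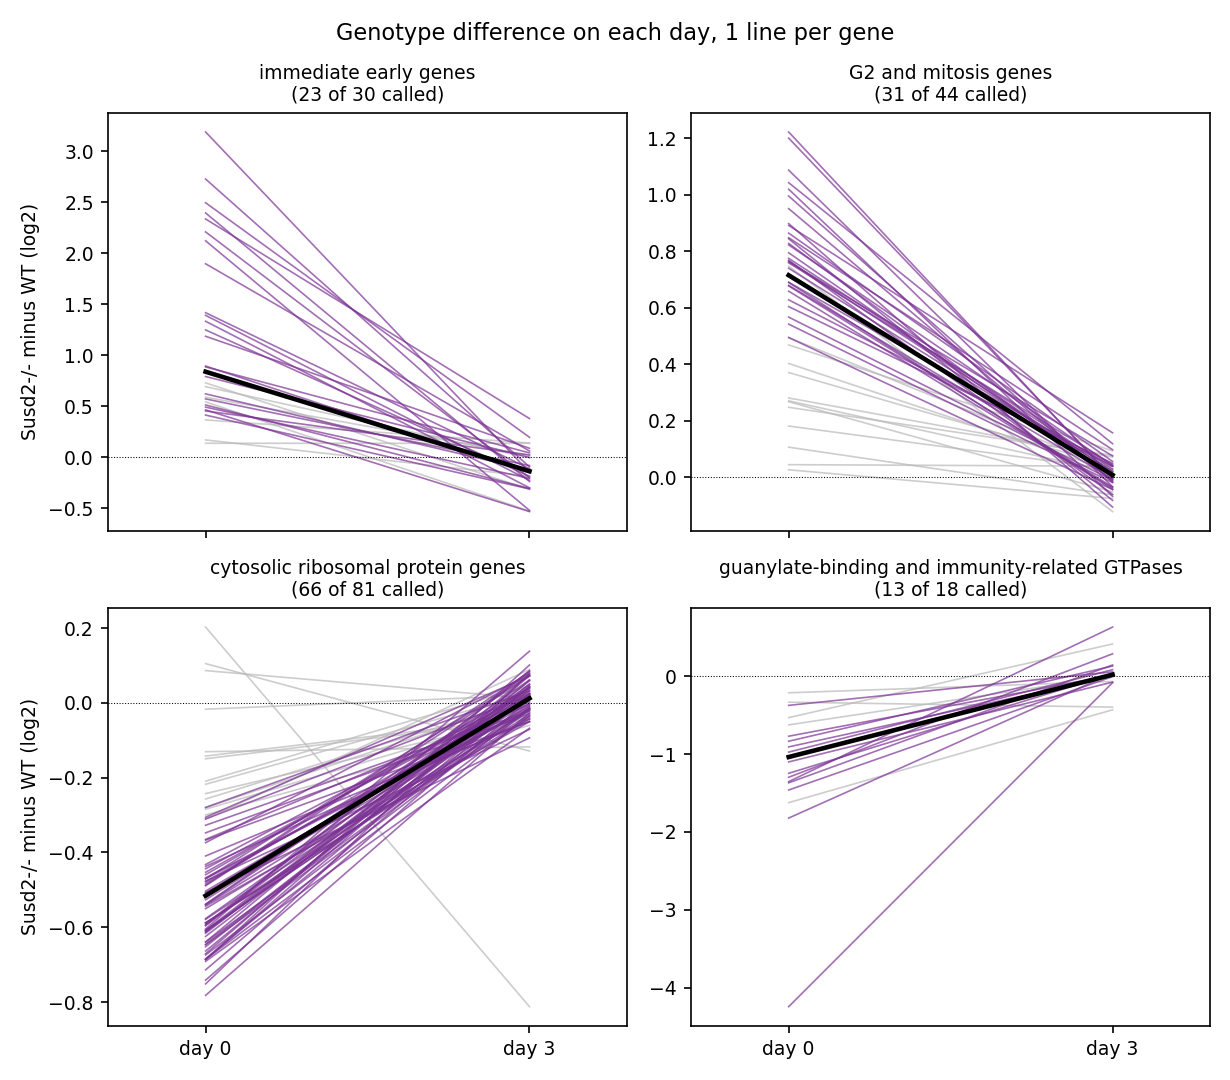
Susd2-/- minus WT on the log2 scale at day 0 and day 3, with a purple line for each called gene, a grey line for each gene not called and a black line for the median of the list. Medians ran from 0.84 to -0.14 for immediate early genes, from 0.72 to 0.0075 for G2 and mitosis genes, from -0.52 to 0.012 for cytosolic ribosomal protein genes and from -1.04 to 0.019 for interferon-inducible GTPases.

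Genes of the activated T cell state were split. Of 28 T cell activation genes, 9 were called below 0 and 1 above 0, with a median of -0.15, and their median day change was 3.10 in WT and 3.13 in Susd2-/-. Irf4, a factor induced in proportion to receptor signal, was at 13.6 and 12.5 CPM in WT and 39.3 and 34.1 CPM in Susd2-/- at day 0 and at 540, 573, 519 and 529 CPM at day 3. Its interaction was -1.58 ± 0.11 (adjusted p = 1.85e-08), from a day change of 5.41 ± 0.09 in WT and 3.83 ± 0.08 in Susd2-/-. Ctla4, an inhibitory receptor, was at 16.5 and 16.6 against 43.6 and 45.7 CPM at day 0 and at 396 and 496 against 523 and 520 CPM at day 3, with an interaction of -1.21 ± 0.13 (adjusted p = 1.93e-05). The early activation antigen Cd69 and the costimulatory receptor Cd28 had interactions of -0.89 ± 0.08 and -1.01 ± 0.09. Cd28 was at 78.4 and 82.1 CPM in WT day 0 libraries and at 154 to 171 CPM in the other 6, so that its day change was 1.02 ± 0.07 in WT and 0.01 ± 0.07 in Susd2-/-. The member above 0 was Pdcd1, the gene of PD-1, at 1.04 ± 0.27, and it was named after its value was seen. Pdcd1 was not called in 5 alternatives, among them the fits without either WT day 0 library and without Susd2-/- day 0 library 4.

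Of 27 genes of the IL-2 receptor, STAT5 and their feedback, 7 were called below 0 and 1 above 0, with a median of -0.18. Pim3, a survival kinase, was at 42.6 and 38.7 against 64.2 and 60.4 CPM at day 0 and at 133 and 137 CPM in WT against 104 and 98.7 CPM in Susd2-/- at day 3. Susd2-/- was thus the higher group at rest and the lower after activation, with an interaction of -1.03 ± 0.10 (adjusted p = 3.38e-06). Il2ra, the high-affinity chain of the IL-2 receptor, was at 2.29 to 4.17 CPM at day 0 and at 940 to 992 CPM at day 3 over both genotypes. Its interaction of -0.54 ± 0.16 was called (adjusted p = 0.0338) but lost its call in 12 of 19 alternatives, and the list had 2 calls below 0 with day 0 libraries summed.

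Of 32 cytotoxic genes tested, 5 were called above 0 and 1 below, with 17 estimates above 0 and 15 below and a median of 0.089. The gene of granzyme B, Gzmb, was at 24.8 and 26.0 CPM in WT and 15.3 and 13.3 CPM in Susd2-/- at day 0 and at 5108 to 6522 CPM at day 3, with an interaction of 0.65 ± 0.12 (adjusted p = 0.00217). It was not called with voom weights or with day 0 libraries summed, and the cytotoxic counts were 8 above 0 and 0 below without Susd2-/- day 3 library 1 and 4 above and 3 below without Susd2-/- day 3 library 2. With WT day 0 library 4 or either Susd2-/- day 0 library left out no member was called below 0, and 2 were without WT day 3 library 2. Klrk1, which encodes the activating receptor NKG2D, and the chemokine gene Ccl5 had interactions of 0.82 ± 0.10 and 1.00 ± 0.16 in opposite phases of the response, since Klrk1 was higher and Ccl5 lower at day 3 in both genotypes. S100a6, a calcium-binding protein of effector and memory cells, was at 13.1 and 13.9 against 6.27 and 7.21 CPM at day 0 and at 0.711 and 0.885 against 1.75 and 1.32 CPM at day 3, an interaction of 1.92 ± 0.35.

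Naive and memory lists went both ways. Among 32 naive and quiescence genes 5 were called above 0 and 8 below, with a median of -0.25. The homing receptor Ccr7 was at 471 and 468 against 702 and 684 CPM at day 0 and at 203 to 253 CPM at day 3, with an interaction of -0.70 ± 0.10. Tcf7, a factor that maintains naive and memory cells, and the antiproliferative genes Tob1 and Btg1 were also called below 0. Without WT day 0 library 3 or 4 the naive counts were 3 above 0 and 5 below, and without Susd2-/- day 0 library 4 the count above 0 was 2. Of 20 memory genes 4 were called in each direction, with a median of 0.014. Among 30 chemokine receptor and adhesion genes 8 were above 0 and 5 below, led by Gpr183, a receptor for oxysterols that guides cells within lymphoid tissue, at -1.57 ± 0.17, and Itgb1, the integrin beta-1 chain, at 0.73 ± 0.11. The memory count above 0 was 7 without WT day 3 library 1. For the receptor and adhesion list the count above 0 was 4 or 5 without any 1 of the day 0 libraries, and that below 0 was 3 without WT day 0 library 3, Susd2-/- day 0 library 3 or 4, or Susd2-/- day 3 library 2.

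Cell division genes had a smaller day change in Susd2-/- cells, from a higher level at rest. Of 44 G2 and mitosis genes, 31 were called below 0 and none above, and all 44 estimates lay below 0, with a median of -0.71. The median day change was 4.16 in WT and 3.62 in Susd2-/-, and the median genotype difference 0.72 at day 0 and 0.0075 at day 3. Mki67 was at 67.8 and 66.9 CPM in WT and 135 and 152 CPM in Susd2-/- at day 0, and at 1068 and 1006 against 1052 and 973 CPM at day 3. The day 3 groups overlapped and the day 0 groups differed by more than 2-fold, for an interaction of -1.12 ± 0.10 (adjusted p = 5.02e-07).

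Cenpa, the histone variant that marks centromeres, was at 49.5 and 42.1 against 102 and 109 CPM at day 0 and at 250, 254, 248 and 256 CPM at day 3, with an interaction of -1.20 ± 0.10 (adjusted p = 5.02e-07). Foxm1, the factor that drives mitotic genes, and Top2a, the topoisomerase that untangles sister chromatids, had interactions of -1.23 ± 0.13 and -0.71 ± 0.08. Replication genes followed in smaller number, with 14 of 49 called below 0, 1 above 0 and a median of -0.15. The largest fixed examples were Cdc6, which loads the replicative helicase, at -1.06 ± 0.15, Rrm2, a subunit of ribonucleotide reductase, at -0.80 ± 0.10, and E2f1, a factor of the G1 to S transition, at -1.19 ± 0.17. Rrm2 was at 11.9 and 11.7 against 21.5 and 21.7 CPM at day 0 and at 458 to 521 CPM at day 3. The count of G2 and mitosis genes called was 18 with day 0 libraries summed and that of replication genes 5.

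**Figure D4:**
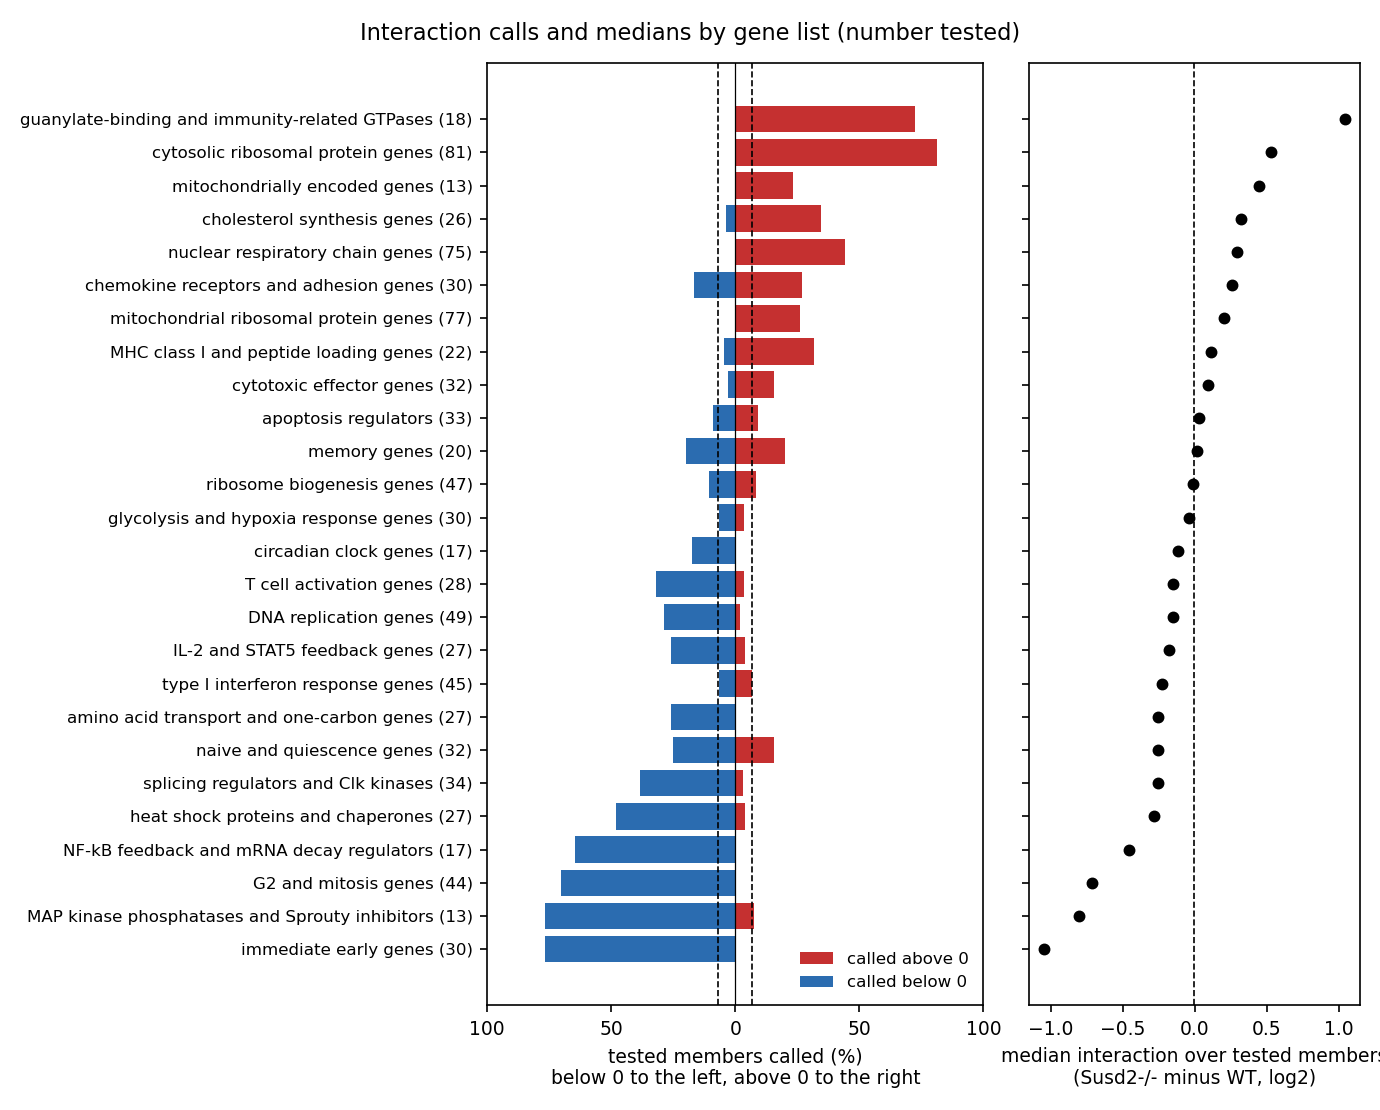
For 26 gene lists, the percentage of tested members called below 0 (blue, to the left) and above 0 (red, to the right), and the median interaction of the tested members (points). Dashed lines mark the shares of all genes tested (6.60% above 0 and 6.88% below 0) and the median of all genes (-0.0073). Interferon-inducible GTPases and ribosomal protein genes are at the upper end and immediate early genes, at -1.05, at the lower.

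Genes of protein synthesis went the other way. Of 81 cytosolic ribosomal protein genes, 66 were called above 0 and none below, with a median interaction of 0.53. Their median day change was -0.58 in WT and -0.037 in Susd2-/-. By share of counts, transcripts that were lower at day 3 in WT were thus near their starting level in Susd2-/-. The median genotype difference was -0.52 at day 0 and 0.012 at day 3. Rpl30 was at 938 and 910 CPM in WT and 568 and 529 CPM in Susd2-/- at day 0, and at 400 and 406 against 406 and 446 CPM at day 3, with an interaction of 0.83 ± 0.09 (adjusted p = 8.47e-06). Rpl35 had a negative day change in WT, -0.39 ± 0.06, and a positive one in Susd2-/-, 0.35 ± 0.06, and Rpl31 and Rpl7 had interactions of 0.74 ± 0.09 and 0.71 ± 0.09.

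Subunits of the initiation factor eIF3 were among the genes of smallest adjusted p above 0. Eif3e was at 544 and 557 against 324 and 316 CPM at day 0 and at 383, 366, 382 and 415 CPM at day 3, with an interaction of 0.88 ± 0.09 (adjusted p = 2.93e-06). Eif3m was at 250 and 246 against 151 and 151 CPM at day 0 and at 263, 269, 275 and 285 CPM at day 3, with one of 0.79 ± 0.08 (adjusted p = 5.77e-06). In both genes the day 0 groups stood well apart. Ribosome biogenesis genes did not share a direction: of 47, 4 were called above 0 and 5 below, a share close to that of all genes on each side, with a median of -0.0089. Nop10 and Npm1, parts of small nucleolar particles and of the nucleolus, were above 0 at 0.66 ± 0.12 and 0.56, and Noc2l was below 0 at -0.46. The count below 0 was 1 or 2 without WT day 0 library 3 or 4 or Susd2-/- day 0 library 3, 10 without WT day 3 library 2 and 11 without Susd2-/- day 3 library 1.

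Some genes of mitochondrial protein synthesis and respiration were also called above 0. Of 77 mitochondrial ribosomal protein genes 20 were called above 0 and none below, with a median of 0.20, and of 75 nuclear genes for respiratory chain subunits 33 were above 0 and none below, with a median of 0.29. Estimates of 14 and 12 members of these lists lay below 0. Unlike the cytosolic ribosomal proteins these had positive median day changes in both genotypes, 1.17 in WT and 1.50 in Susd2-/- for the first list and 0.81 and 1.15 for the second. Cox7b, a subunit of cytochrome c oxidase, was at 75.7 and 78.3 against 49.5 and 52.1 CPM at day 0 and at 112 and 107 against 117 and 129 CPM at day 3, with an interaction of 0.77 ± 0.10 (adjusted p = 7.42e-05). Cox6b1, of the same complex, and Ndufv2, of complex I, had interactions of 0.61 ± 0.09 and 0.58 ± 0.09, and Mrpl20 one of 0.77 ± 0.13. The 13 listed genes encoded in mitochondrial DNA all had estimates above 0, with a median of 0.45 and 3 called. All genes with an mt- symbol together made up 1.63% to 2.08% of counts at day 0 and 1.25% to 1.41% at day 3.

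With day 0 libraries summed, 32 cytosolic and 3 mitochondrial ribosomal protein genes and 9 respiratory chain genes were called above 0, and none of the mitochondrially encoded ones. The respiratory chain count was 20 without WT day 0 library 3 and 19 without Susd2-/- day 0 library 4. That of mitochondrial ribosomal proteins was 7, 12, 10, 13 and 8 without WT day 0 library 3, WT day 0 library 4, Susd2-/- day 0 library 4, WT day 3 library 2 and Susd2-/- day 3 library 2, and 11 mitochondrially encoded genes were called above 0 without WT day 3 library 1.

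Interferon-inducible GTPases formed the list with the highest median. These guanylate-binding proteins and immunity-related GTPases are induced by interferon and act against intracellular microbes. Of 18 genes, 13 were called above 0 and none below, with a median of 1.04, from a median day change of -1.02 in WT and 0.26 in Susd2-/-. The median genotype difference was -1.04 at day 0 and 0.019 at day 3.

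Igtp was at 189 and 199 CPM in WT and 70.5 and 70.3 CPM in Susd2-/- at day 0, and at 230 and 283 against 255 and 255 CPM at day 3. Its day 3 values lay within the WT range, and the interaction was 1.45 ± 0.11 (adjusted p = 3.52e-07). Tgtp2 was at 89.5 and 90.1 against 34.8 and 34.7 CPM at day 0 and at 21.3, 25.8, 26.1 and 25.8 CPM at day 3, with an interaction of 1.51 ± 0.13 (adjusted p = 5.25e-07). Its near-identical neighbour Tgtp1 (chr11:48985327-48994172, minus strand) was at 51.0 and 54.7 against 14.7 and 15.1 CPM at day 0 and averaged 21.7 CPM in WT and 22.2 CPM in Susd2-/- at day 3, with an interaction of 1.86 ± 0.19. Reads of such copies can be split between them, and the gene models of Igtp (chr11:58199556-58207591) and Irgm2 (chr11:58199618-58222782) overlap on the plus strand, so their counts are not separate measurements. Irgm2 had an interaction of 1.28 ± 0.14.

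Gbp2 (chr3:142620602-142638008, plus strand) was at 170 and 170 against 70.9 and 67.2 CPM at day 0 and at 116 and 146 CPM in WT against 166 and 154 CPM in Susd2-/- at day 3. The order of the genotypes was thus reversed between the days, with a day change of -0.37 ± 0.09 in WT and 1.21 ± 0.09 in Susd2-/- and an interaction of 1.58 ± 0.13 (adjusted p = 1.26e-06). Iigp1 had the widest gap at day 0, 43.7 and 39.5 against 2.91 and 1.44 CPM, and 50.5 to 86.0 CPM in all libraries at day 3. Its interaction of 4.16 ± 0.55 (adjusted p = 0.0133) lost its call without either WT day 0 library and with day 0 libraries summed. The GTPase count was 8 without WT day 0 library 3, without WT day 0 library 4 and with day 0 libraries summed.

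Ly6a, the gene of the surface antigen Sca-1 (chr15:74994877-74998031, minus strand), was at 76.4 and 75.7 against 15.3 and 14.3 CPM at day 0 and at 310 and 405 against 256 and 293 CPM at day 3, with an interaction of 1.98 ± 0.17 (adjusted p = 0.00013). Its levels in the genotypes did not overlap on either day. Of 22 genes of MHC class I and peptide loading 7 were called above 0 and 1 below, led by the immunoproteasome subunit Psmb9 at 0.68 ± 0.10, with 128 and 125 against 78.7 and 73.2 CPM at day 0 and 154 to 174 CPM at day 3. The count above 0 was 2 without WT day 0 library 3 and 3 without WT day 0 library 4 or Susd2-/- day 0 library 4.

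The wider list of type I interferon response genes did not follow the GTPases. Of 45 tested, 3 were called above 0 and 3 below, as in all genes, with a median of -0.23. WT day 3 library 2 stood apart here: Isg15, an antiviral ubiquitin-like protein named after its values were seen, was at 67.9 CPM in it against 24.2 CPM in WT day 3 library 1 and 29.9 and 23.4 CPM in the Susd2-/- day 3 libraries. Without WT day 3 library 1, 21 members of the list were called below 0, and without WT day 3 library 2, 10 were called above 0. Without any 1 of the day 0 libraries 1 member was called below 0. Over the 2 fits without a WT day 3 library the GTPase count above 0 was 11 and 15. Oasl1, at 5.04 and 8.60 against 3.50 and 3.03 CPM at day 3 and 11.6 and 12.2 against 15.2 and 15.7 CPM at day 0, had an interaction of -1.44 ± 0.29.

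Surface genes of lymphocytes were among the genes of smallest adjusted p above 0. Cd52, a short glycosyl-phosphatidylinositol-anchored antigen, was at 462 and 473 against 262 and 251 CPM at day 0 and at 136, 135, 141 and 143 CPM at day 3, with an interaction of 0.93 ± 0.08 (adjusted p = 7.41e-07). Cd48, a ligand of the SLAM family, was at 204 and 200 against 98.2 and 101 CPM at day 0 and at 115 to 124 CPM at day 3, with an interaction of 0.99 ± 0.09 (adjusted p = 1.02e-06). Both were lower in Susd2-/- cells at rest and level after activation. Among 18 CD8 T cell identity genes 3 were called above 0, the CD3 and receptor chain genes Cd3g, Cd3d and Trbc2, and 4 below, with a median of -0.016. No member was called below 0 without WT day 0 library 3 or 4 or Susd2-/- day 0 library 3, and 1 was without Susd2-/- day 3 library 2.

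Of 27 heat shock proteins and chaperones 13 were called below 0 and 1 above, with a median of -0.29. Hsph1, a cochaperone of Hsp70, was at 167 and 167 against 372 and 387 CPM at day 0 and at 372, 336, 375 and 400 CPM at day 3. Its share of counts in the Susd2-/- day 0 libraries was thus near that in the WT day 3 libraries. The interaction of Hsph1 was -1.06 ± 0.09 (adjusted p = 5.02e-07), with a day change of 1.09 ± 0.06 in WT and 0.03 ± 0.06 in Susd2-/-. Stip1, which links Hsp70 to Hsp90, had an interaction of -0.71 ± 0.09. Of 34 splicing regulators 13 were called below 0 and 1 above, with a median of -0.26 and a lowest estimate of -0.58. Estimates of 6 chaperone and 7 splicing genes lay above 0. With day 0 libraries summed, 2 chaperone genes and no splicing regulator were called below 0. The splicing count was 2 and 3 without WT day 0 library 3 and 4, 8 and 5 without Susd2-/- day 0 library 3 and 4, and 7 without Susd2-/- day 3 library 2.

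Among metabolic lists, 9 of 26 cholesterol synthesis genes were called above 0 and 1 below, with a median of 0.32. Cyp51, which removes a methyl group from lanosterol, was at 20.7 and 21.3 against 17.6 and 14.8 CPM at day 0 and at 225 and 246 against 279 and 290 CPM at day 3, an interaction of 0.64 ± 0.11. Its genotype difference was -0.37 ± 0.09 at day 0 and 0.27 ± 0.07 at day 3, so that the order of the genotypes changed. The cholesterol count above 0 was 4 without WT day 0 library 3, Susd2-/- day 0 library 4 or Susd2-/- day 3 library 2, and 4 with day 0 libraries summed. Among 27 genes for amino acid transport and one-carbon metabolism 7 were called below 0, with the glutamine carrier Slc38a2 at -0.72 ± 0.08 and Slc3a2, the heavy chain of the large amino acid transporter, at -0.66 ± 0.09. Fewer of this list were called with day 0 libraries summed. Glycolysis and hypoxia genes, of which 1 of 30 was above 0 and 2 below, and apoptosis regulators, with 3 of 33 in each direction, had few calls in either direction. The glycolysis and hypoxia count above 0 was 5 without WT day 3 library 2, 2 without Susd2-/- day 0 library 3 and 0 without WT day 0 library 3 or 4, Susd2-/- day 0 library 4, WT day 3 library 1 or Susd2-/- day 3 library 2, and that below 0 was 5 without WT day 3 library 1 and 1 without WT day 0 library 3. The apoptosis count above 0 was 0 without WT day 0 library 3 or 4, Susd2-/- day 0 library 3 or Susd2-/- day 3 library 2 and 1 without Susd2-/- day 0 library 4, and that below 0 was 5 without WT day 3 library 2. Within these lists Vegfa, an angiogenic growth factor, had an interaction of -3.03 ± 0.46 and Cdkn1a, the cell cycle inhibitor p21, one of -1.95 ± 0.29, both from levels under 2.3 CPM at day 0 and above 27 CPM at day 3.

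For 157 of the called genes the larger genotype difference was that of day 3, and the examples given here were chosen after their values were seen. Lmna (chr3:88480147-88509956, minus strand), the gene of the nuclear lamins A and C, was at 5.06 and 4.82 against 9.11 and 9.71 CPM at day 0 and at 7.30 and 5.20 against 2.43 and 2.76 CPM at day 3. Susd2-/- was the higher group at rest and the lower after activation, with an interaction of -2.19 ± 0.30 (adjusted p = 0.000111). Mid1 (chrX:169685199-170005736, plus strand), a microtubule-associated ubiquitin ligase, was at 5.28 and 5.91 against 5.19 and 5.95 CPM at day 0 and at 5.75 and 2.94 against 0.943 and 0.611 CPM at day 3. The day 0 values of the genotypes overlapped, and the interaction of -2.53 ± 0.44 (adjusted p = 0.000935) came from the day 3 libraries, of which the WT pair differed by nearly 2-fold.

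Furin, a protease that processes TGF-beta, was at 62.0 and 56.7 against 75.2 and 74.3 CPM at day 0 and at 88.6 and 87.8 against 70.0 and 65.2 CPM at day 3, with an interaction of -0.72 ± 0.10 (adjusted p = 0.000153). Slc15a3, a lysosomal peptide and histidine transporter whose larger difference was that of day 0, was at 0.594 and 0.376 against 1.61 and 1.13 CPM at day 0 and at 14.8 and 17.8 against 9.13 and 6.58 CPM at day 3, so its order was reversed, with an interaction of -2.55 ± 0.41 (adjusted p = 0.000465). Fam102a was reversed the other way, from a genotype difference of -0.31 ± 0.08 at day 0 to 0.44 ± 0.09 at day 3. These genes kept their call in all 19 alternatives.

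**Figure D5:**
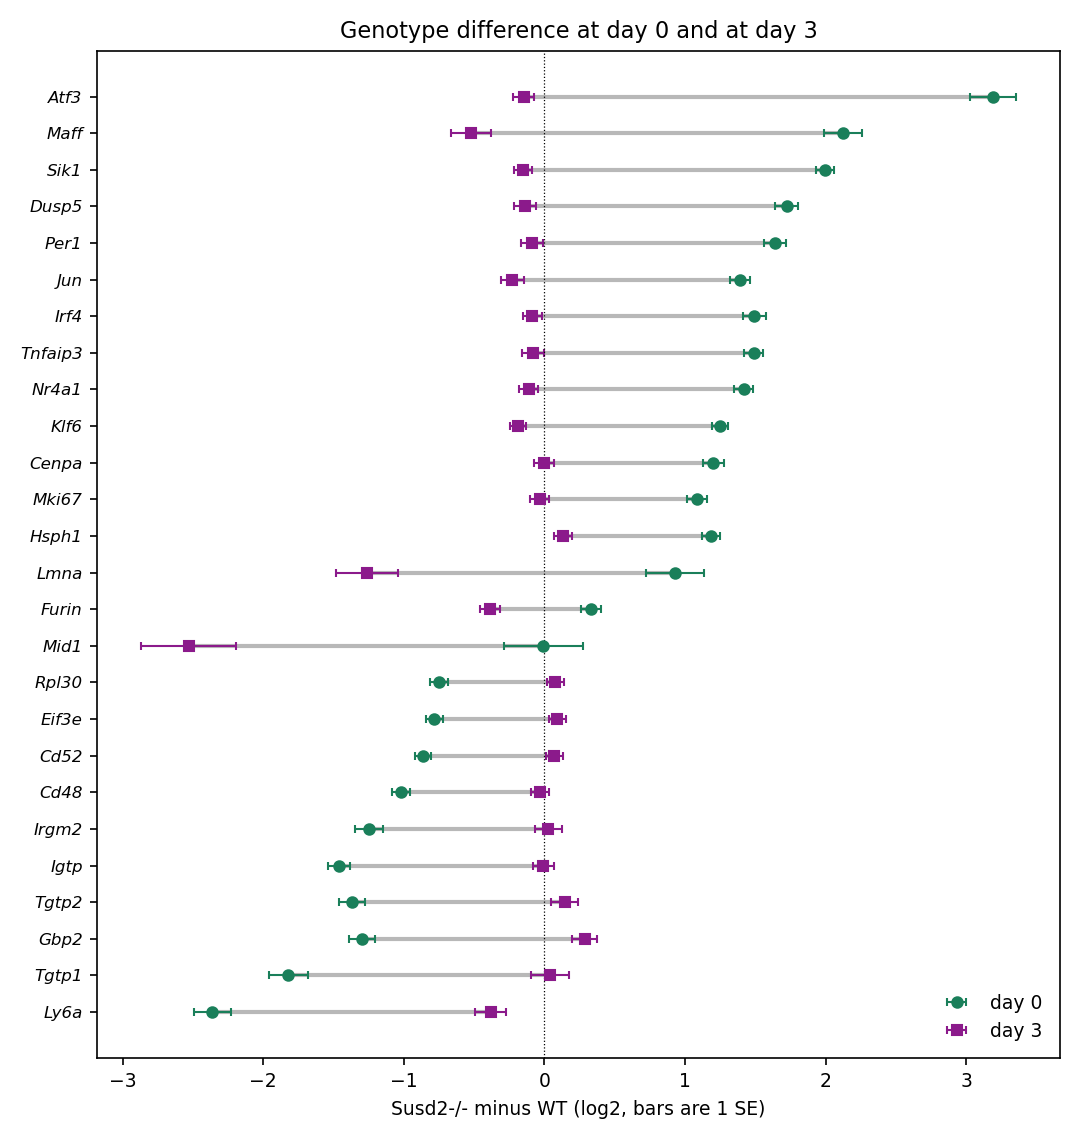
Susd2-/- minus WT on the log2 scale for 26 genes, at day 0 (green circles) and day 3 (purple squares), with bars of 1 standard error and a grey line whose length is the interaction. Most day 3 values sit near 0 while day 0 values range from 3.19 for Atf3 to -2.36 for Ly6a. Lmna, Furin and Mid1 lie away from 0 at day 3.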

How the data were processed

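Per the labels' protocols, messenger RNA of CD8+ T cells was made into strand-specific libraries with 12 PCR cycles and read as 150-base pairs. The authors deposited raw counts per gene symbol, whole numbers with no normalization, in a table of 27019 genes and 15 lane columns. Tools named in the submitters' processing notes are Subread 2.0.1, SAMtools 1.10, HISAT2 2.1.0 and fastp 0.23.2, with the GRCm38 build. How multi-mapped reads and strand were treated in counting, and with which annotation, is not given in the sources used here. Values of ribosomal protein, Gbp, Tgtp, Klra and H2-Q genes, which have close copies, and of genes with overlapping or antisense neighbours, are therefore uncertain. No column was left unused.

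Lanes were summed per library. Genes were kept by filterByExpr on the 4 groups (16057 genes, at least 99.9% of each library's counts) and fitted together in edgeR 4.0.16 under R 4.3.3 with TMM scaling, 1 coefficient per group, robust glmQLFit and the quasi-likelihood F test of the interaction, with 4 residual degrees of freedom. Adjusted p-values are Benjamini-Hochberg values over the 16057 genes, with a threshold of 0.05. The standard error is the size of the log2 value divided by the square root of F. Day changes and genotype differences are parts of the same fit and carry no call. The procedure was run on counts simulated with the fitted spread, the same in every group. Such counts cannot show how an unequal spread, or libraries of shared mice, would affect the calls. Gene positions come from GENCODE M21 by symbol (15737 of 16057 tested genes), and promoter sequences from RefSeq.

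The comparison, the 37 lists and the naming rule were chosen with earlier results of these data known. The rule took Susd2, the 12 genes of largest interaction in each direction with an average log2 CPM not under 1, the 10 of smallest adjusted p in each direction, up to 10 with day changes of opposite sign and at least 0.5 log2 units, and up to 4 members of each list, and the text names a part of them. Some results are not reported here. Alternatives were DESeq2 1.42.0, limma 3.58.1 voom with weights per group, 3 scalings, 2 filters, a library-number block, first lanes alone, day 0 libraries summed, each library left out, and ribosomal protein and mitochondrially encoded genes left out.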

Additional observations from a re-analysis of the deposited data

Results flagged for a closer look

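The day change differed between the genotypes, by the test of the interaction itself, in 2164 genes, 1059 above 0 and 1105 below 0. The 10 genes of smallest adjusted p above 0 had interactions (log2 of the day 3 to day 0 ratio, Susd2-/- minus WT) of 1.45 for Igtp, 1.51 for Tgtp2, 0.93 for Cd52, 0.99 for Cd48, 1.58 for Gbp2, 0.88 for Eif3e, 0.79 for Eif3m, 0.83 for Rpl30, 1.28 for Irgm2 and 1.86 for Tgtp1. The 10 below 0 had interactions of -2.15 for Sik1, -3.34 for Atf3, -1.44 for Klf6, -1.86 for Dusp5, -1.73 for Per1, -1.53 for Nr4a1, -1.57 for Tnfaip3, -1.62 for Jun, -1.58 for Irf4 and -2.65 for Maff. Groups of 2 libraries are too small for a test of single libraries that stand apart.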

How the results depend on the processing

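With single libraries left out, the count of called genes ran from 1058 to 2481, that above 0 from 512 to 1098 and that below 0 from 546 to 1401, with the 4 lowest totals for the day 0 libraries and 1448 without Susd2-/- day 3 library 2. Counting the day 0 libraries of each genotype as 1 sample left 419 calls, 213 above 0 and 206 below 0, and first lanes alone gave 662 above 0. The other scalings, filters and tools gave totals of 2131 to 2393, within 1.5 times of the 2164, and DESeq2 called 2243, of which 2015 were shared. No shared deviation of same-numbered WT and Susd2-/- libraries from their group means was seen, with correlations of 0.00859 at day 0 and -0.0104 at day 3. With 2 libraries a group, this cannot tell whether libraries of the same number were handled together. With a replicate block of the library number within day, 1796 genes were called, 871 above 0 and 925 below 0. Of the 156 named genes with a call, 81 were called in every alternative that tested them, and none changed sign. Genes with a group near 0 counts, Susd2 among them, are limited by depth, and their fitted values are no bounds.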

Other observations

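Some marker lists of cells other than CD8+ T cells held a called gene. Apoe, a lipid carrier of macrophages, was at 19.9 and 17.9 CPM in WT and 48.1 and 43.1 CPM in Susd2-/- at day 0 and at 4.86 to 7.85 CPM at day 3, with an interaction of -1.43 ± 0.25 (adjusted p = 0.00121, edgeR). Ctss, a lysosomal protease, ran the other way, at 164 and 173 against 104 and 99.4 CPM at day 0 and 29.4 to 34.4 CPM at day 3, with an interaction of 0.57 ± 0.10 (adjusted p = 0.00101), which was not called with day 0 libraries summed. Of the 20 B cell markers 1 was called below 0, and of the 12 plasma cell markers 1 was above 0 and 3 below. Plasma cell markers went both ways, with 6 estimates above 0, 6 below and a median of 0.42. Jchain, a plasma cell gene, was at 10.2 and 9.46 CPM in WT against 2.31 and 1.85 CPM in Susd2-/- at day 0. Sdc1, the gene of the plasma cell marker syndecan-1, was at 0.437 and 0.205 against 1.42 and 1.20 CPM at day 0 and at 24.8 to 31.0 CPM at day 3, with an interaction of -1.77 ± 0.36, and Xbp1, a factor of the unfolded protein response, had one of -0.69 ± 0.11. Among 18 natural killer and innate lymphoid markers 1 was called in each direction, Klra5 at 3.29 ± 0.74 and Eomes at -0.83 ± 0.17, the latter not called with first lanes alone or with day 0 libraries summed. The 12 gamma-delta T cell, 8 dendritic cell, 5 erythroid, 2 neutrophil and 11 platelet, mast and stromal markers tested held no call in edgeR's test. Of the 12 markers of CD4 and regulatory T cells 2 were called below 0, Ctla4 and Il2ra, both also expressed by activated CD8+ cells.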
